A study of Mus musculus with 2 samples.

Results

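The cells described here carried Barhl1 or Barhl2, homeobox genes of the dI1 class of dorsal spinal interneurons, together with more Lhx2 and Robo3 than Robo2. A cell was a member when it held at least 2 unique molecular identifiers (UMIs) of Barhl1 and Barhl2 together, fewer than 2 of Atoh1, and more of Lhx2 and Robo3 together than of Robo2. The rule found 660 cells of the 14688 that passed the cell filter (1000 genes or more, and no more than 10% of UMIs mitochondrial). The RA+BMP4 library held 594 of them and the RA library 66. These 6 genes chose the members, so their levels are given as a description and support nothing.

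Both libraries came from day 9 of a differentiation of MM13, a line of mouse embryonic stem cells that stood behind every cell. One culture had received retinoic acid and bone morphogenetic protein 4 (RA+BMP4), the other retinoic acid without BMP4 (RA). After trypsin dissociation a kit removed dead cells, and libraries used the 10x Genomics 3′ v3 chemistry. Each condition had 1 library, so there was no replicate check, no difference was tested, and every value describes these 2 libraries.

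In the embryo, dI1 neurons arise beside the roof plate from progenitors that express the proneural factor Atoh1, and they switch on the homeobox factors Barhl1, Barhl2, Lhx2 and Lhx9. In the mouse they divide into a commissural group, whose axons cross the floor plate, and an ipsilateral group. Robo3 is the receptor that lets mouse commissural axons cross the midline, Robo2 is a receptor for the midline repellent Slit, and Lhx2 and Lhx9 are known from mouse mutants to act upstream of Robo3 in dI1 neurons.

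The promoters of 4 genes are shown because their levels run through the results: Robo3 and Lhx2 give the type its name, Barhl2 is a gene of the entry rule, and Lhx9 is the dI1 factor that the rule did not use. Each is the 250 bases before the RefSeq start site, from the RefSeq table of build GRCm38.p6, written 5′ to 3′ on the gene's strand. Lhx2 has a further RefSeq start site that is not shown. Capitals mark TAATTA, a core that LIM and Barhl homeodomains can bind and that reads the same on both strands.
Robo3, minus strand of chr9:37433176-37433425: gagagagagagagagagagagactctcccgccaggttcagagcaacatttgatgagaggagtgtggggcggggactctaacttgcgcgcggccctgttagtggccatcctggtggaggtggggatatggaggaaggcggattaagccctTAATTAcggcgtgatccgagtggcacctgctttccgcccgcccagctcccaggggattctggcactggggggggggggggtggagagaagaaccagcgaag
Lhx2, plus strand of chr2:38339031-38339280: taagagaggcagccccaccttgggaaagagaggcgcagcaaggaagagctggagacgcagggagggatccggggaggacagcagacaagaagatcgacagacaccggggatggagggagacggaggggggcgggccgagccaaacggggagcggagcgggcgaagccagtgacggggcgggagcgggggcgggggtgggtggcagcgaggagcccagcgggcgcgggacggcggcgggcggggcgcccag
Lhx9, minus strand of chr1:138842445-138842694: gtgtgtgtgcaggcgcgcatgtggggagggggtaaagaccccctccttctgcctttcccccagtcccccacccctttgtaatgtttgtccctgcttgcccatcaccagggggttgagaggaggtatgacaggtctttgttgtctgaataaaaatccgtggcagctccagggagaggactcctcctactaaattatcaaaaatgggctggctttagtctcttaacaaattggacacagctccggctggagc
Barhl2, minus strand of chr5:106458167-106458416: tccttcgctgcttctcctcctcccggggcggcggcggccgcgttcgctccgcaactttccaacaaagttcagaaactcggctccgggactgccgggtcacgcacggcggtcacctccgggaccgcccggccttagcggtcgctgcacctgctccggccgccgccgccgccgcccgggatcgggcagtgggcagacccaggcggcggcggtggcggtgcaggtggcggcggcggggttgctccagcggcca
TAATTA stood 1 time before Robo3 and in none of the other 3 windows, and 1590 of 32851 mouse promoters of this length (4.84%) held it. CAGCTG, an E-box core that proneural factors can bind and that also reads the same on both strands, stood in none of the 4, against 4271 of all promoters (13.001%). A match is a string of letters in a window, not a site in use. The GC content was 61.2% for Robo3, 72.8% for Lhx2, 53.6% for Lhx9 and 74.8% for Barhl2, beside a median of 52.4% over all promoters.

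The members held 6577301 UMIs in RA+BMP4 and 1004101 in RA. Their median depth was 9626 and 12845.5 UMIs per cell, with 3632.5 and 3987.5 genes and mitochondrial shares of 3.85% and 6.40%. Depth and mitochondrial share therefore move with every comparison between the libraries, and their part was not tested. Scrublet called 39 of the RA+BMP4 members (6.57%) and 1 of the RA members (1.52%) doublets. They were kept. The libraries shared 43 barcodes, of which 22 were in passing cells and 0 in members. Brackets hold 95% intervals, exact Clopper-Pearson for shares and exact conditional binomial for log2 ratios of summed UMIs. They cover counting error only.

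The type was more frequent in the RA+BMP4 library, where it formed a smaller part of the Barhl neurons. It made up 6.87% of passing RA+BMP4 cells [6.34 to 7.42] and 1.09% of passing RA cells [0.846 to 1.39], a ratio of 6.28. Barhl cells as a whole, chosen without the condition on Lhx2, Robo3 and Robo2, numbered 1517 and 90. The type held 39.2% of Barhl cells in RA+BMP4 [36.7 to 41.7] and 73.3% in RA [63.0 to 82.1], a ratio of 0.534.

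Its counterpart, Barhl cells with more Robo2 than Lhx2 and Robo3 together, is called the Robo2 type here and had 760 cells in RA+BMP4 and 20 in RA. That was 50.1% of Barhl cells [47.6 to 52.6] and 22.2% [14.1 to 32.2]. Equal sums left 163 and 4 cells outside both types, of which 121 and 4 had no UMI of Lhx2, Robo3 or Robo2. Atoh1 cells, with at least 2 Atoh1 UMIs, made up 3.09% and 1.32% of passing cells, a ratio of 2.33. With a stricter filter of 2000 genes and 5% mitochondrial UMIs, 9 RA members remained beside 470 in RA+BMP4, and the ratio of member shares was 10.8.

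**Figure D1:**
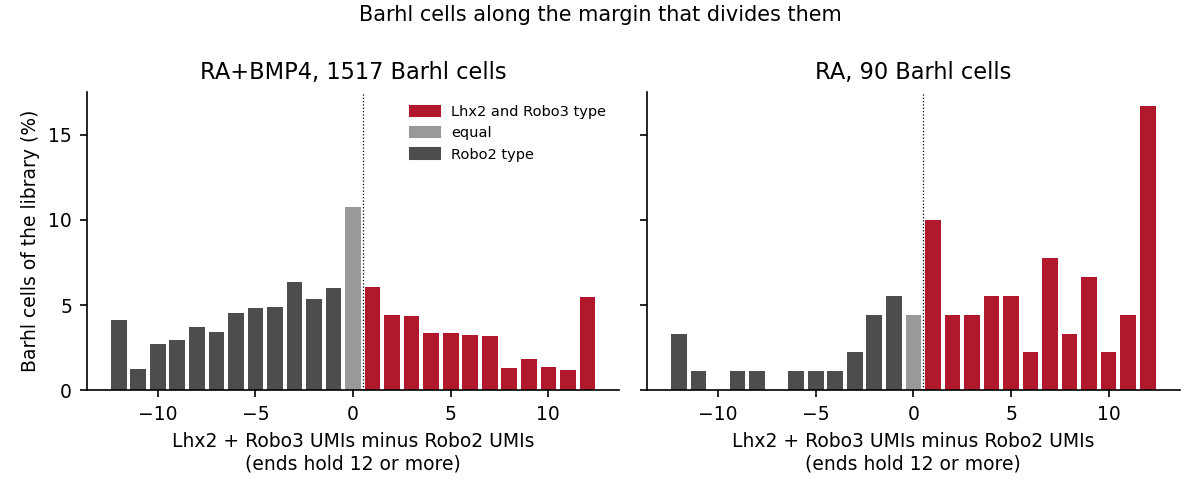
Share of each library's Barhl cells (vertical axis, %) at each margin of Lhx2 plus Robo3 UMIs over Robo2 UMIs (horizontal axis, ends pooled), with RA+BMP4 and RA shown separately. Members have a margin of 1 or more; 502 RA+BMP4 and 57 RA members lay at 2 or more, and 163 and 4 cells sat at equal sums.

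The rule was rarely met by cells that should lack these genes. Among cells with at least 20 collagen UMIs, 0 of 157 RA+BMP4 cells met it, which allows a share of up to 1.91% (3 counts of the total, the limit used here for each 0), and 0 of 215 RA cells, which allows up to 1.40%. Among cells with at least 10 UMIs of the pluripotency gene Dppa5a, 2 of 183 RA+BMP4 cells (1.09%) and 0 of 345 RA cells (up to 0.870%) met it. Those cells were deeper than the members, with medians of 20703 and 29925 UMIs for collagen cells and 40111 and 54798 for Dppa5a cells.

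The margin had no gap where the condition on Robo2 cut it. Members had a median margin of 5 UMIs in RA+BMP4 and 7 in RA, with highest margins of 27 and 41. Just inside the threshold, 92 RA+BMP4 cells had a margin of 1, with 314 CPM (the CPM unit scales UMIs to the summed UMIs of the cell set) of Cntn2, 1122 CPM of Ebf1 and 169.7 CPM of Chmp2b. Just outside it, the 163 cells with equal sums had 158, 620.03 and 295 CPM of these genes, and the 91 cells with a margin of -1 had 92.9, 401 and 679.6 CPM. Members with a margin of 2 or more had 368, 1387 and 70.7 CPM, and cells with a margin of -2 or less 74.2, 256 and 991 CPM, so these 3 genes changed by steps along the margin. Lhx9 did not, with 98.3 CPM at a margin of 2 or more, 105 at 1, 63.5 at equal sums, 122 at -1 and 57.1 at -2 or less. Of the 163 cells with equal sums, 121 had no UMI of Lhx2, Robo3 or Robo2. The part of low counts per cell in these steps was not tested.

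At the entry condition on Barhl, Lhx9 and Ebf1 stepped down, and Pou4f1 did not. The 97 RA+BMP4 members with exactly 2 Barhl UMIs had 73.6 CPM of Lhx9 and 1310.3 CPM of Ebf1. The 179 cells with 1 Barhl UMI that otherwise met the rule had 16.3 and 486 CPM, and 1300 cells with none had 3.08 and 339 CPM. With 2, 1 and 0 Barhl UMIs, Cntn2 had 337, 192 and 167 CPM, and Pou4f1 had 77.9, 71.9 and 78.3 CPM. Pou4f1 thus did not separate members from cells just outside this threshold.

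The label was checked against dI1 markers outside the rule. Lhx9, a LIM homeobox factor of dI1 neurons, had 99.1 CPM in RA+BMP4 members against 11.7 in all other cells, and 76.7 CPM in RA members against 1.13 in all other cells. Cntn2 (TAG-1), an adhesion molecule of commissural axons, had 362 CPM in RA+BMP4 members against 66.3 in all other cells and 374 CPM in RA members against 63.2 in all other cells. Pou4f1 (Brn3a), a POU factor of several sensory neuron classes, had 77.7 CPM in RA+BMP4 members against 35.3 in all other cells and 137 CPM in RA members against 62.4 in all other cells. These 3 markers were over 2-fold higher in members than in all other cells in both libraries. Against Atoh1 cells, 1 of the 3 was past 2-fold higher in each library, with median log2 ratios of 0.53 in RA+BMP4 and 0.70 in RA. This is a description, since the same cells were chosen by related genes, and of all genes at 50 CPM in either set 7.87% were past 2-fold higher and 6.69% lower in RA+BMP4 members (14.6% in all), and 8.61% and 9.22% in RA members (17.8% in all). Among markers of dI2 to dI6 and ventral neurons, 1 gene, Lhx1 of the dI2 and dI4 lists, reached 50 CPM in RA+BMP4 and was not past 2-fold, and the others were too low there to be called. The summed dI2 markers stood at 96.5 CPM in RA+BMP4 members against 153 in all other cells, and the summed ventral markers at 8.21 against 4.69 CPM. The summed progenitor markers stood at 698 CPM in RA+BMP4 members (499 without called doublets), against 2054 in all other passing cells, and at 609.5 CPM in RA members (612 without), against 1999. The summed neural crest and glia markers stood at 235 CPM in RA+BMP4 members (106 without called doublets) against 1178, and at 183 CPM in RA members (184 without) against 1527.

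Every cell was then thinned to 5000 UMIs, which left out 22 RA+BMP4 members and 1 RA member. Lhx9 was found in 29.4% [25.7 to 33.3] of RA+BMP4 members and 27.7% [17.3 to 40.2] of RA members, and in 40.9% and 54.5% without thinning. In collagen cells, which should lack it, the thinned values were 1.91% and 0 of 215 (up to 1.40%). Cntn2 was found in 69.1% [65.1 to 72.8] and 83.1% [71.7 to 91.2] of members, beside 5.73% and 2.79% of collagen cells. Pou4f1 was found in 27.3% [23.7 to 31.1] and 46.2% [33.7 to 59.0], beside 2.55% and 1.86%. In both libraries these shares were higher in members than in collagen cells.

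The rule genes were unevenly spread over members. Barhl2 had a median of 3 UMIs per cell in RA+BMP4 (lowest 0, highest 16) and 2 in RA (lowest 0, highest 17). Robo3 had a median of 4 (0 to 27) and 5 (0 to 37). Lhx2 had a median of 0 (0 to 15) and 1 (0 to 14), with a UMI in 38.9% and 63.6% of members. Lhx2 thus went undetected in most RA+BMP4 members, and 98 and 11 members also carried a Robo2 UMI.

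The name of the type invites a comparison with the Robo2 type of the same library. Members had more Cntn2, Ebf1, Pou4f1 and Uncx and less Chmp2b, Chl1 and L1cam, in both libraries. In RA+BMP4, 92 of 4114 genes at 50 CPM in either type were at least 2-fold higher in members (2.24%) and 118 at least 2-fold lower (2.87%), 5.1% in all. The RA values rest on 20 Robo2 type cells with 270592 UMIs, and 3 of these cells (15.0%) were called doublets. The summed neural crest and glia markers stood at 183 CPM in RA members against 658 in these cells, and the part of this in the RA ratios was not tested. In RA, 157 of 4177 genes were past 2-fold higher in members (3.76%) and 242 lower (5.79%), 9.55% in all. The types were divided by Lhx2, Robo3 and Robo2, which the counts include. These genes and genes that vary with them were bound to differ.

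**Figure D2:**
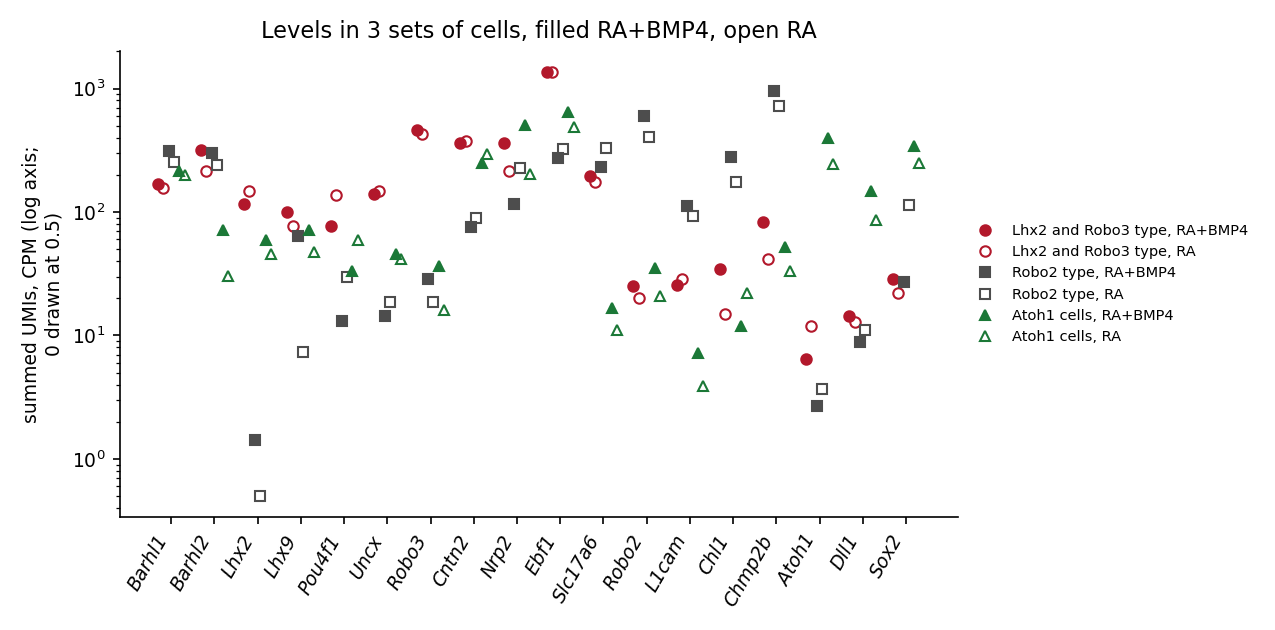
Summed UMIs as CPM (log axis) of 18 genes in the Lhx2 and Robo3 type, the Robo2 type and Atoh1 cells, for RA+BMP4 (filled) and RA (open), with 0 drawn at 0.5. Chmp2b and Robo2 sit lower in the Lhx2 and Robo3 type than in the Robo2 type, and Cntn2, Ebf1 and Uncx sit higher, in both libraries.

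Among transcription factors, Ebf1, a helix-loop-helix factor of differentiating neurons (GRCm38 chromosome 11, 44617317 to 45008091, plus strand), had 1353 CPM in RA+BMP4 members against 272 in the Robo2 type, a log2 ratio of 2.31 [2.25 to 2.38]. It had 1362 CPM in RA members against 322 in the Robo2 type, a log2 ratio of 2.08 [1.77 to 2.41]. Uncx, a homeobox factor, had 141 CPM in RA+BMP4 members against 14.4 in the Robo2 type (3.29 [3.01 to 3.59]) and 147 CPM in RA members against 18.5 in the Robo2 type (2.996 [1.74 to 4.64]). The intervals of both genes lay above 0 in both libraries. Pou4f1 had 77.7 CPM in RA+BMP4 members against 12.98 in the Robo2 type (2.58 [2.27 to 2.90]) and 137 CPM in RA members against 29.6 in the Robo2 type (2.22 [1.198 to 3.46]). St18, a zinc finger factor, had 58.5 CPM in RA+BMP4 members against 5.53 in the Robo2 type (3.41 [2.95 to 3.90]), and 85 counts in RA members against 0 in the Robo2 type, at least 7.64-fold higher with 3 counts put in place of 0. Lhx1, a LIM factor of other dorsal classes, ran the other way, with 65.7 CPM in RA+BMP4 members against 159 in the Robo2 type (-1.28 [-1.44 to -1.12]) and 64.7 CPM in RA members against 166 in the Robo2 type (-1.36 [-1.93 to -0.78]).

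Lhx9 was less divided. It had 99.1 CPM in RA+BMP4 members against 64.3 in the Robo2 type, a log2 ratio of 0.63 [0.46 to 0.80], under 2-fold. It had 77 counts in RA members against 2 in the Robo2 type, or 76.7 CPM in RA members against 7.39 in the Robo2 type, with a log2 interval of 1.47 to 6.45. After thinning, Lhx9 was found in 29.4% of RA+BMP4 members and 13.4% [10.97 to 16.1] of Robo2 type cells.

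Guidance and adhesion genes divided in both directions. Of 11 commissural guidance receptors at 50 CPM outside the rule, 2 were past 2-fold higher in RA+BMP4 members and 1 lower, with a median log2 ratio of 0.16 beside -0.01 over all genes. Cntn2 had 362 CPM in RA+BMP4 members against 76.2 in the Robo2 type (2.25 [2.12 to 2.38]) and 374 CPM in RA members against 88.7 in the Robo2 type (2.08 [1.48 to 2.74]). Nrp2, a receptor for class 3 semaphorins, had 359.7 CPM in RA+BMP4 members against 115 in the Robo2 type (1.64 [1.53 to 1.76]) and 213 CPM in RA members against 225 in the Robo2 type (-0.08 [-0.50 to 0.35]). L1cam, an axonal adhesion molecule known from commissural axons after crossing, had 25.4 CPM in RA+BMP4 members against 111 in the Robo2 type (-2.13 [-2.38 to -1.89]) and 28.9 CPM in RA members against 92.4 in the Robo2 type (-1.68 [-2.50 to -0.85]). Members were thus higher in Cntn2 and lower in L1cam in both libraries, and higher in Nrp2 in RA+BMP4, while the RA interval of Nrp2 held 0.

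Of 14 adhesion genes, 3 were past 2-fold higher in RA+BMP4 members (Cdh4, Ncam2 and Alcam) and 6 lower (Chl1, Pcdh7, Pcdh9, Cdh13, Cntn1 and Cntnap2), with a median of -0.64. Over all genes 2.24% were higher and 2.87% lower, with a median of -0.01. Chl1, a close homologue of L1cam, had 34.5 CPM in RA+BMP4 members against 278 in the Robo2 type (-3.01 [-3.22 to -2.81]) and 14.9 CPM in RA members against 174 in the Robo2 type (-3.54 [-4.48 to -2.68]). Cdh4, a classical cadherin, had 72.1 CPM in RA+BMP4 members against 26.6 in the Robo2 type (1.44 [1.199 to 1.68]). Among Eph receptors, Epha5 was higher in members, with 153 CPM in RA+BMP4 members against 58.2 in the Robo2 type (1.39 [1.23 to 1.56]) and 427 CPM in RA members against 103 in the Robo2 type (2.05 [1.49 to 2.65]). Epha4 was lower, with 58.5 CPM in RA+BMP4 members against 134 in the Robo2 type (-1.195 [-1.37 to -1.03]) and a log2 ratio of -1.65 [-2.30 to -0.99] in RA. Sema5a, a transmembrane semaphorin, was the single ligand of 9 past 2-fold in RA+BMP4, with 20.5 CPM in RA+BMP4 members against 94.1 in the Robo2 type (-2.20 [-2.47 to -1.93]).

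Several genes furthest apart were not guidance genes. Nrgn, a calmodulin-binding neuronal protein, had 56.3 CPM in RA+BMP4 members against 3.60 in the Robo2 type (3.97 [3.41 to 4.58]), and 30 counts in RA members against 3 in the Robo2 type. Cacna2d1, a calcium channel subunit, had 161 CPM in RA+BMP4 members against 31.6 in the Robo2 type (2.35 [2.15 to 2.55]). Chmp2b, a subunit of the membrane-remodelling ESCRT-III complex, was far lower in members, with 83.3 CPM in RA+BMP4 members against 957 in the Robo2 type (-3.52 [-3.65 to -3.40]) and 41.8 CPM in RA members against 717 in the Robo2 type (-4.10 [-4.62 to -3.61]). After thinning it was found in 19.8% [16.6 to 23.3] of RA+BMP4 members and 91.4% [89.1 to 93.3] of Robo2 type cells. Rprm, a cell cycle inhibitor, had 70.4 CPM in RA+BMP4 members against 440.3 in the Robo2 type (-2.64 [-2.79 to -2.50]). Of 5 effector genes listed for the Robo2 type outside the rule, 3 were past 2-fold lower in members (Sorcs3, Kctd4 and Cntn3) and 1 higher (Brinp2). Over all genes these shares were 2.87% and 2.24%. The effector list was drawn up with earlier results of these libraries known and is not independent evidence.

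**Figure D3:**
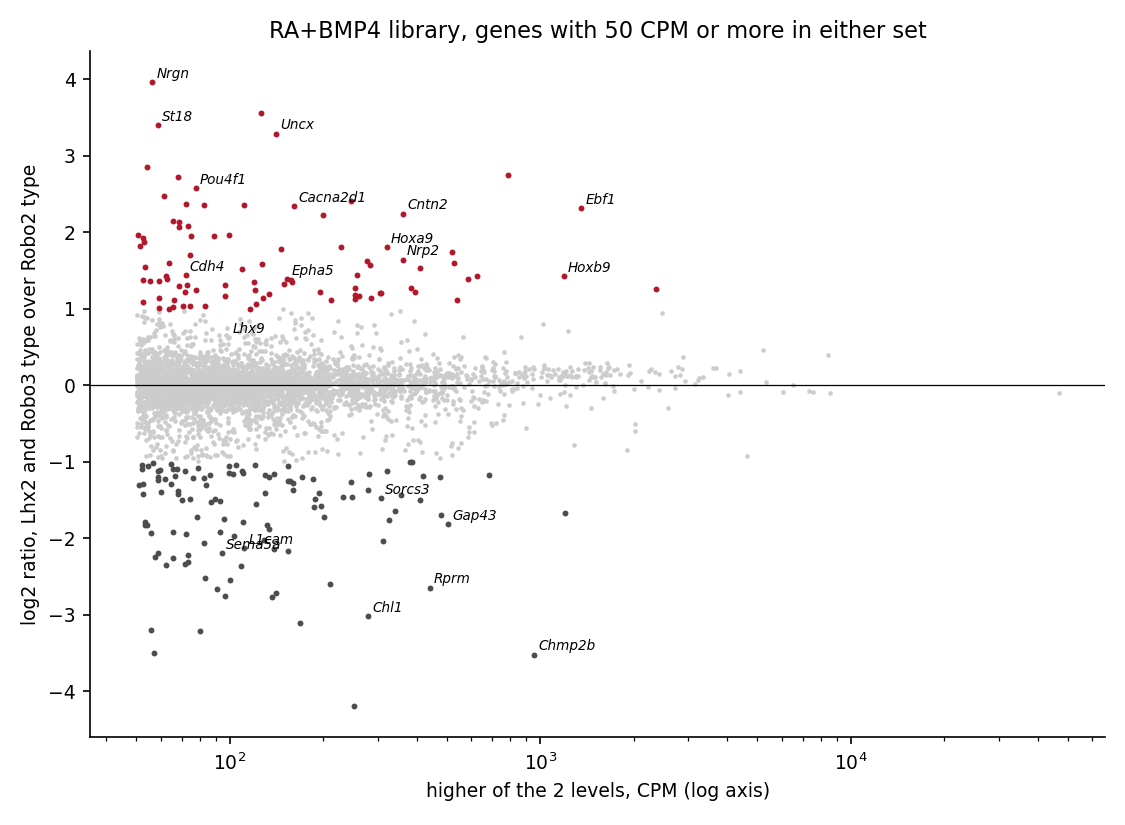
Log2 ratio of the Lhx2 and Robo3 type over the Robo2 type in the RA+BMP4 library (vertical axis) against the higher of the 2 levels in CPM (horizontal log axis), one point per gene. Coloured points are the 92 genes at least 2-fold higher and the 118 at least 2-fold lower, less the genes of the rule, which are not drawn; labels mark genes described in the text.

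Hox genes, which record position along the body axis, were higher in RA+BMP4 members by the median of each list, but not gene by gene. Of paralog groups 1 to 5, 3 of 6 genes were past 2-fold higher in members (median log2 ratio 1.08), in groups 6 to 8 it was 4 of 7 (1.12) and in groups 9 to 13 2 of 3 (1.42), with 0 past 2-fold lower. Over all genes 2.24% were past 2-fold higher and 2.87% lower. Above 0 were 6 of 6, 5 of 7 and 2 of 3 genes. The lowest ratio was -0.78 in groups 6 to 8 and -0.50 in groups 9 to 13. The summed groups 6 to 8 were nearly level, with 2464 CPM in RA+BMP4 members against 2388 in the Robo2 type. In RA these sums were 2963 and 3041 CPM. Hoxa9 had 320.5 CPM in RA+BMP4 members against 91.9 in the Robo2 type (1.80 [1.68 to 1.93]) and 167 CPM in RA members against 48.0 in the Robo2 type (1.80 [0.99 to 2.74]). Hoxb9 had 1190.5 CPM in RA+BMP4 members against 443 in the Robo2 type (1.42 [1.37 to 1.48]) and 938 CPM in RA members against 599 in the Robo2 type (0.65 [0.41 to 0.90]). In RA the medians of the lists were 0.72, 0.96 and 0.65, and 1 gene, Hoxc8, was past 2-fold lower.

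Of 8 newborn neuron genes, 3 were past 2-fold higher in RA+BMP4 members (Rnd2, Insm1 and Dll3) and 0 lower, with a median log2 ratio of 0.72. Of 23 maturation genes, 0 were higher and 3 lower (Gap43, Rbfox3 and Mapt), with a median of -0.21. Over all genes 2.24% were higher and 2.87% lower, with a median of -0.01. Gap43, a growth cone protein, had 143 CPM in RA+BMP4 members against 504 in the Robo2 type (-1.81 [-1.92 to -1.71]) and 179 CPM in RA members against 214 in the Robo2 type (-0.26 [-0.69 to 0.20]). Slc17a6, the vesicular glutamate transporter VGLUT2, had 196 CPM in RA+BMP4 members against 232 in the Robo2 type and 173 CPM in RA members against 333 in the Robo2 type. No gene of the GABA and glycine list reached 50 CPM in either type.

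Set against Atoh1 cells, members had more transcripts of maturing neurons and less of progenitor and Notch genes. The sets were divided by Atoh1, and members were also chosen by the Barhl genes, so genes that vary with these were bound to differ. The counts that follow include the genes of the rule that reached 50 CPM. In RA+BMP4, 312 of 4202 genes were at least 2-fold higher in members (7.43%) and 214 at least 2-fold lower (5.09%). In RA, 390 of 3981 genes were higher (9.8%) and 258 lower (6.48%). The summed markers of pluripotent cells stood at 694 CPM in RA Atoh1 cells against 34.9 in RA members. In RA+BMP4 they stood at 59.2 CPM in Atoh1 cells against 76.6 in members. Their part in the RA ratios was not tested. Of 23 maturation genes, 16 were past 2-fold higher and 0 lower in RA+BMP4, with a median log2 ratio of 1.56 beside 0.03 over all genes. In RA 16 of 23 were higher and 0 lower, with a median of 1.99 beside 0.07. Stmn2, a microtubule regulator of growing axons, had 1429 CPM in RA+BMP4 members against 279 in Atoh1 cells (2.36 [2.26 to 2.46]) and 1475 CPM in RA members against 237 in Atoh1 cells (2.64 [2.47 to 2.81]). Slc17a6 had 196 CPM in RA+BMP4 members against 16.7 in Atoh1 cells (3.55 [3.15 to 3.97]) and 173 CPM in RA members against 10.99 in Atoh1 cells (3.98 [3.26 to 4.79]).

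Of 11 newborn neuron genes, 9 were past 2-fold lower in RA+BMP4 members and 0 higher, with a median log2 ratio of -1.50. In RA the list was less uniform, with 6 of 13 genes past 2-fold lower, 1 higher and a median of -0.78. Gadd45g, a growth arrest gene of differentiating progenitors, had 54.3 CPM in RA+BMP4 members against 787 in Atoh1 cells (-3.86 [-4.02 to -3.70]) and 43.8 CPM in RA members against 440.2 in Atoh1 cells (-3.33 [-3.80 to -2.89]). Dll1, a Notch ligand, had 14.4 CPM in RA+BMP4 members against 149 in Atoh1 cells (-3.36 [-3.70 to -3.04]) and 12.9 CPM in RA members against 86.0 in Atoh1 cells (-2.73 [-3.68 to -1.91]). Sox2, a progenitor factor, had 28.4 CPM in RA+BMP4 members against 341 in Atoh1 cells (-3.58 [-3.81 to -3.36]) and 21.9 CPM in RA members against 249 in Atoh1 cells (-3.51 [-4.20 to -2.89]). These 3 genes were low in the members of both libraries, with intervals below 0. Grin2a, an NMDA receptor subunit, had 633 counts in RA+BMP4 members against 2 in Atoh1 cells, with a log2 interval of 5.40 to 10.30.

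Of 11 factors linked to a neuron's birth date, 8 were past 2-fold higher in RA+BMP4 members and 1 lower (Nfia). Pou3f1, a POU factor, had 836 CPM in RA+BMP4 members against 175 in Atoh1 cells (2.25 [2.13 to 2.38]) and 744 CPM in RA members against 154 in Atoh1 cells (2.27 [2.06 to 2.49]). Hoxc9 had 491 CPM in RA+BMP4 members against 161 in Atoh1 cells (1.61 [1.48 to 1.75]) and 232 CPM in RA members against 65.9 in Atoh1 cells (1.82 [1.47 to 2.17]). Cntn2 was already present in Atoh1 cells, with 362 CPM in RA+BMP4 members against 251 in Atoh1 cells and 374 CPM in RA members against 297 in Atoh1 cells. Robo3, a gene of the rule, had 458 CPM in RA+BMP4 members against 36.2 in Atoh1 cells and 431 CPM in RA members against 16.2 in Atoh1 cells.

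The contrast of RA+BMP4 with RA asks what added BMP4 went along with inside the type, and it set few genes apart. Of 3977 genes at 50 CPM in either library, 63 were at least 2-fold higher in RA+BMP4 members (1.58%) and 28 at least 2-fold lower (0.704%), 2.29% in all. With trimmed-mean (TMM) scaling, which moved the median log2 ratio over all genes by -0.11, the split was 47 higher and 39 lower. All other passing cells gave 1.07% past 2-fold. The RA side rests on 66 cells.

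The dI1 identity genes outside the rule and the commissural guidance receptors stayed within 2-fold between the libraries, as did most genes. Over all genes 2.29% were past 2-fold either way, so a count of 0 in lists this short does not set them apart. Of 3 identity genes outside the rule, 0 were past 2-fold. Lhx9 had 99.1 CPM in RA+BMP4 and 76.7 in RA (0.37 [0.03 to 0.73]), Cntn2 had 362 CPM in RA+BMP4 and 374 in RA (-0.05 [-0.21 to 0.11]) and Pou4f1 had 77.7 CPM in RA+BMP4 and 137 in RA (-0.82 [-1.10 to -0.54]). Among the rule's own genes, Barhl1 had 169 CPM in RA+BMP4 and 155 in RA, Barhl2 319.7 CPM in RA+BMP4 and 215 in RA, Lhx2 115 CPM in RA+BMP4 and 148 in RA and Robo3 458 CPM in RA+BMP4 and 431 in RA. Of 10 guidance receptors, 0 were past 2-fold, with a median of 0.01. Nrp2 had 359.7 CPM in RA+BMP4 and 213 in RA (0.76 [0.55 to 0.96]), Dcc, the netrin receptor, 144 CPM in RA+BMP4 and 121 in RA (0.26 [-0.02 to 0.54]), and Robo1 189 CPM in RA+BMP4 and 227 in RA (-0.27 [-0.47 to -0.06]). Of 23 maturation genes, 0 were past 2-fold, with a median of 0.04 beside 0.06 over all genes.

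Glycolysis and hypoxia-linked genes were higher in RA+BMP4 members. Of 10 at 50 CPM, 6 were past 2-fold higher and 10 were above 0, with a median log2 ratio of 1.18. Over all genes 1.58% were past 2-fold higher, with a median of 0.06. Ldha, lactate dehydrogenase A, had 545 CPM in RA+BMP4 and 193 in RA (1.495 [1.29 to 1.71]), and Bnip3, a mitophagy gene induced by low oxygen, 185 CPM in RA+BMP4 and 66.7 in RA (1.47 [1.11 to 1.85]). Pgk1 and Tpi1, glycolytic enzymes, stood at 1.21 [1.01 to 1.42] and 1.16 [0.96 to 1.36]. Slc2a3, a neuronal glucose transporter, had 56.3 CPM in RA+BMP4 and 10.96 in RA (2.36 [1.504 to 3.38]). Ddit4, a stress-induced inhibitor of mTOR signalling, had 95.3 CPM in RA+BMP4 and 31.9 in RA (1.58 [1.07 to 2.14]), but its ratio was -0.075 under the stricter cell filter with 9 RA members. The same list had a median of 0.25 with 0 of 9 genes past 2-fold higher in all other passing cells. In the Robo2 type the median was 0.82, with 2 of 8 genes past 2-fold higher. There 3.25% of all genes were past 2-fold higher and 4.87% past it either way. In Atoh1 cells the median was 0.62, with 2 of 10 genes past 2-fold higher and 1 lower. There the shares over all genes were 1.41% and 2.07%. Whether the cell sets differed in this was not tested.

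**Figure D4:**
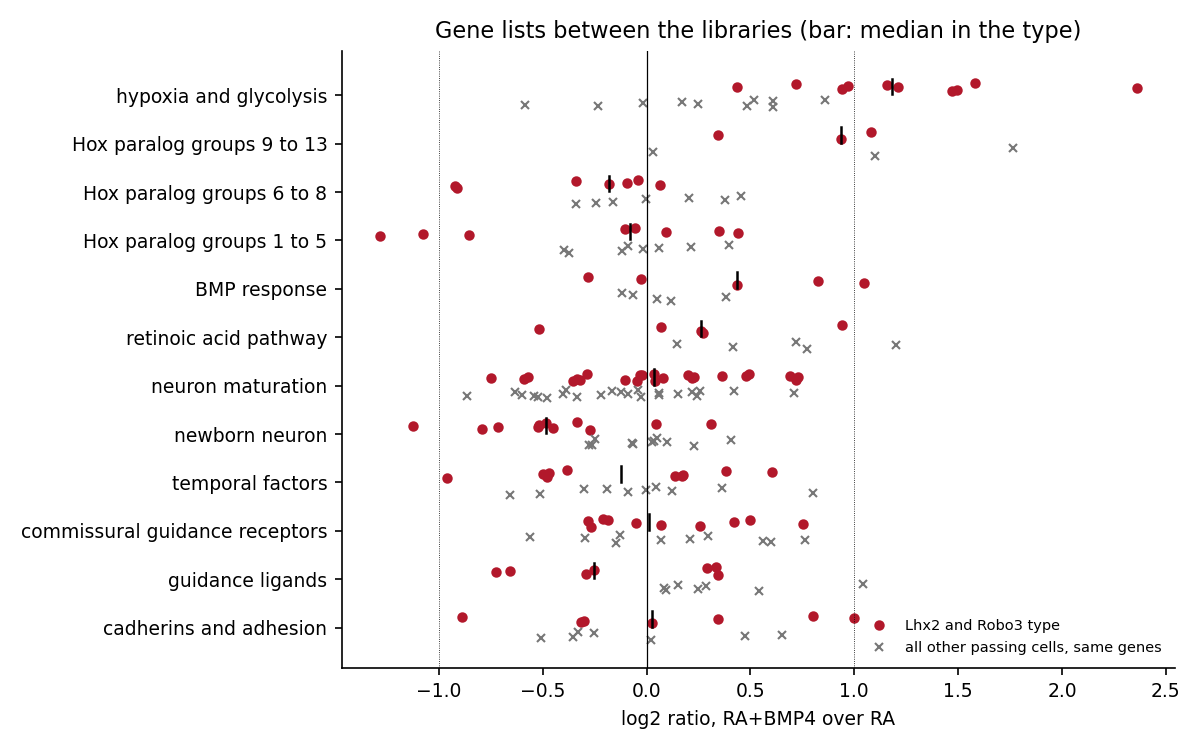
Log2 ratio of RA+BMP4 over RA (horizontal axis) for the genes of 12 lists at 50 CPM, in members (dots), with a bar at their median, and in all other passing cells (crosses). The glycolysis and hypoxia genes lie above 0 in members, with a median of 1.18, and the guidance receptors centre near 0.01.

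The Hox genes differed in both directions, and where they overlap antisense transcripts of their clusters the counts cannot be told apart, since the use of strand is not known here. Hoxa2 (31.5 CPM in RA+BMP4 and 76.7 in RA, -1.28 [-1.67 to -0.89]) and Hoxa5 (158 CPM in RA+BMP4 and 334 in RA, -1.08 [-1.25 to -0.89]) were past 2-fold lower in RA+BMP4 members. Hoxa3, Hoxa6 and Hoxa7 stood at -0.86, -0.92 and -0.93. Hoxc9 was past 2-fold higher, with 491 CPM in RA+BMP4 and 232 in RA (1.08 [0.89 to 1.28], but 0.98 with TMM scaling), and Hoxa9 had 320.5 CPM in RA+BMP4 and 167 in RA (0.94 [0.71 to 1.17]). Hoxb9 had 1190.5 CPM in RA+BMP4 and 938 in RA (0.34 [0.25 to 0.44]). In all other passing cells Hoxc9 had 201 CPM in RA+BMP4 and 59.2 in RA (1.76 [1.72 to 1.80]).

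Among the genes furthest apart were several that are markers of other cells. Col14a1 and Col3a1, collagens of mesenchyme, had 64.5 CPM in RA+BMP4 and 5.98 in RA (3.43 [2.30 to 4.89]) and 57.3 CPM in RA+BMP4 and 7.97 in RA (2.85 [1.85 to 4.07]). Without called doublets their log2 ratios were 1.92 and 2.26. Top2a, a topoisomerase of dividing cells, had 86.7 CPM in RA+BMP4 and 15.9 in RA (2.44, or 1.30 without called doublets), and Igfbp5, a secreted growth factor binding protein, had 156 CPM in RA+BMP4 and 39.8 in RA (1.97, or 0.92). Of 8 mesenchyme markers, 8 had counts in RA+BMP4 members and 6 in RA members, with sums of 134 CPM (82.0 without called doublets) and 30.9 CPM. Of 8 roof plate markers, 8 and 2 had counts, with sums of 92.6 CPM (42.6) and 14.9 CPM. The part of RNA from such cells in these differences was not tested. Without called doublets, 52 genes were past 2-fold higher, 38 of them among the 63, and 21 lower, 18 of them among the 28.

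Other genes kept their ratios without called doublets. Nrn1, a neurite growth factor, had 147 CPM in RA+BMP4 and 39.8 in RA (1.88 [1.42 to 2.38], or 1.95), and Slc16a3, a lactate transporter, had 107 CPM in RA+BMP4 and 20.9 in RA (2.36 [1.73 to 3.06], or 2.36). Nrn1 is on the list of Robo2 type effectors. Of 4 such genes at 50 CPM, 2 were past 2-fold higher in RA+BMP4 members, beside 1.58% of all genes. All 4 were above 0, with a median of 0.97. The list summed to 414 CPM in RA+BMP4 members and 189 in RA members. The part of RNA from Robo2 type cells in this was not tested. Id3, an inhibitor of helix-loop-helix factors that BMP signals induce, was the single gene of 5 BMP response genes past 2-fold, with 105 CPM in RA+BMP4 and 50.8 in RA (1.05 [0.64 to 1.49]), but stood at 0.15 without called doublets.

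Other named genes were lower in RA+BMP4 members. Pcp4, a calmodulin regulator, had 18.1 CPM in RA+BMP4 and 82.7 in RA (-2.19 [-2.61 to -1.77]). Epha5 had 153 CPM in RA+BMP4 and 427 in RA (-1.48 [-1.65 to -1.32]), and Ebf2, a relative of Ebf1, 35.3 CPM in RA+BMP4 and 89.6 in RA (-1.35 [-1.70 to -0.98]). Mfng, a Notch-modifying glycosyltransferase, had 23.3 CPM in RA+BMP4 and 50.8 in RA (-1.13 [-1.59 to -0.64]). It was the single gene past 2-fold of 11 newborn neuron genes, whose median was -0.49.

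The members were divided by which of the naming genes had a UMI, a split that rests on the rule's own genes. In RA+BMP4, 72 members (12.1%) had Lhx2 only, 159 (26.8%) had both and 363 (61.1%) had Robo3 only. In RA these were 13 (19.7%), 29 (43.9%) and 24 cells (36.4%). Median depths in RA+BMP4 were 9545.5, 10668 and 9488 UMIs. There, 162 of 4203 genes were at least 2-fold higher in Lhx2-only than in Robo3-only cells (3.85%) and 187 at least 2-fold lower (4.45%), 8.3% in all. In RA, with 13 and 24 cells, 9.86% were higher and 14.7% lower, 24.6% in all.

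Of 10 newborn neuron genes at 50 CPM, 7 were past 2-fold higher in Lhx2-only than in Robo3-only cells of RA+BMP4 and 0 lower, with a median log2 ratio of 1.71 beside -0.01 over all genes. In RA 11 of 11 were higher, with a median of 2.08 beside -0.08. Btg2, an antiproliferative gene of the same list, was not past 2-fold in RA+BMP4, with 42.6, 46.6 and 59.1 CPM in Lhx2-only cells, cells with both and Robo3-only cells. Nhlh1, a helix-loop-helix factor of newborn neurons, had 133 CPM in RA+BMP4 members with Lhx2 only, 63.0 with both and 15.2 with Robo3 only, a log2 ratio of the Lhx2-only over the Robo3-only cells of 3.13 [2.65 to 3.62]. In the same order it had 127, 59.7 and 5.39 CPM in RA, the Robo3-only value from 2 counts. In that order Mfng had 70.6, 37.4 and 6.97 CPM in RA+BMP4 (3.34 [2.64 to 4.07]), and Ebf2 had 125, 43.5 and 13.7 CPM (3.19 [2.69 to 3.71]). Lhx9 had 206, 144 and 55.5 CPM in RA+BMP4 (1.89 [1.59 to 2.20]), and 60.7, 92.9 and 64.7 CPM in RA, where the order differed.

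Of 23 maturation genes, 0 were past 2-fold higher in Lhx2-only cells and 8 lower in RA+BMP4 (median -0.76), and 0 and 14 in RA (median -1.29). Slc17a6 also ran the other way, in the same order of sets, with 61.2, 169 and 235 CPM in RA+BMP4 (-1.94 [-2.40 to -1.51]) and 27.6, 175 and 243 CPM in RA. Stmn4, a neuronal microtubule regulator, had 54.6, 148 and 340.3 CPM in RA+BMP4 (-2.64 [-3.13 to -2.19]), and Sorcs3, a sorting receptor of the Robo2 type list, 7.99, 53.8 and 159 CPM (-4.32 [-5.77 to -3.19]). Nrp2 stayed level, with 358, 390.1 and 345 CPM in RA+BMP4 (0.06 [-0.14 to 0.25]). Pcp4 had 61.2, 23.0 and 7.23 CPM in RA+BMP4 and 22.1, 97.4 and 94.4 CPM in RA, so it was highest in Lhx2-only cells in RA+BMP4 and lowest in them in RA. The RA Lhx2-only set was 13 cells with 181323 UMIs, so its Pcp4 value rests on few counts.

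**Figure D5:**
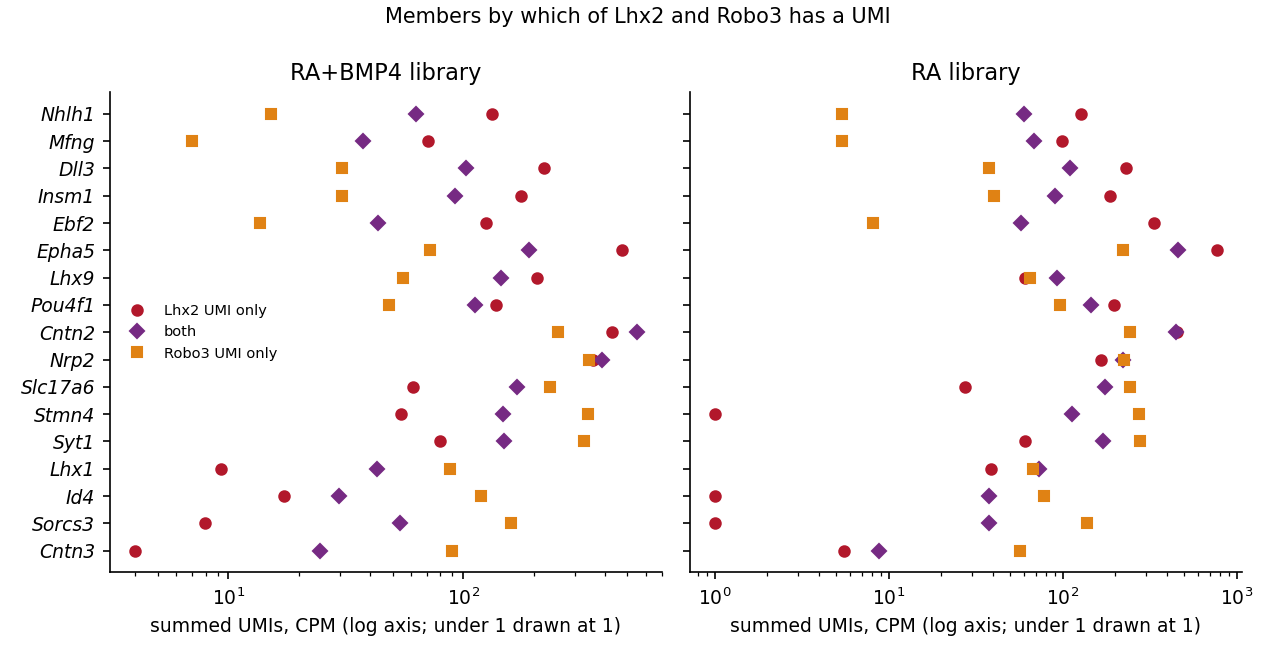
Summed UMIs as CPM (log axis) of 17 genes in members with an Lhx2 UMI only, with both, and with a Robo3 UMI only, for RA+BMP4 and RA on axes of different range. In RA+BMP4, Nhlh1, Mfng and Ebf2 are highest in Lhx2-only cells (133, 70.6 and 125 CPM), and Slc17a6 is highest in Robo3-only cells (235 CPM).

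The contrast of the libraries was then read within these sets, a choice made after seeing the data. Of the 63 genes higher in RA+BMP4 members, 63 were also above 0 among Robo3-only cells and 43 past 2-fold there, and 63 and 52 among members with an Lhx2 UMI. Of the 28 lower genes, 26 were also below 0 among Robo3-only cells and 11 past 2-fold there, and 28 and 20 among members with an Lhx2 UMI. The 63 and 28 genes were called on the summed UMIs of all members, which these sets make up. Agreement in direction was therefore largely fixed in advance and is not a separate check. Mfng was at -0.21 among Robo3-only cells and -0.73 with an Lhx2 UMI, and Ebf2 at 0.76 and -1.05. Ldha was at 1.42 and 1.54, and Epha5 at -1.61 and -1.03. The RA side of the Robo3-only set was 24 cells.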

How the data were processed

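Single-cell RNA was measured in 2 libraries, 1 per condition. The deposited matrices hold raw UMI counts, made with software version 3.0.2 per the file headers; Cell Ranger, CASAVA and build GRCm38 are named in the submitters' processing notes. Which annotation release was used, and whether counting used strand, is not given in the sources used here. Per library there were 13121 (RA+BMP4) and 9704 (RA) barcodes with 115268932 and 122110565 UMIs. Cells with 1000 genes or more and no more than 10% of UMIs mitochondrial passed, 8650 and 6038. UMIs were summed per library and cell set and divided by the set's total (CPM). Genes were compared where they had 50 CPM in either set, and called past 2-fold; counts under 3 were set to 3. With 1 library per condition there are no p-values. The counts were read into Python 3.11.15 with pandas 2.3.3, numpy 2.4.6 and scipy 1.17.1; TMM factors came from edgeR 4.0.16. Doublets were called per library with Scrublet in scanpy 1.11.5 (expected share 8%) and kept, except in a named alternative. Thinning drew 5000 UMIs per cell. The ratio script was tested on simulated data. Members and gene lists were chosen with earlier results of these data known. Named genes are list members, and the 12 highest and 12 lowest ratios of each main comparison outside predicted gene models, mitochondrial genes and the rule's genes; 1 gene that meets this is not reported here. Coordinates come from the GENCODE annotation of the same build by gene ID, and promoters from RefSeq. Alternatives were the scaling, the CPM minimum, the cell filter, the Barhl minimum, the margin, doublets, equal cell weights and thinning.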

Additional observations from a re-analysis of the deposited data

Results flagged for a closer look

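Slc2a3, a neuronal glucose transporter, had opposite directions in the libraries when members were set against Atoh1 cells. Its log2 ratio was 1.21 in RA+BMP4 (56.3 CPM in members against 24.3 in Atoh1 cells) and -2.56 in RA (10.96 CPM in members against 64.6 in Atoh1 cells). The summed markers of pluripotent cells stood at 694 CPM in RA Atoh1 cells against 34.9 in RA members. In RA+BMP4 they stood at 59.2 CPM in Atoh1 cells against 76.6 in members. Neither their part in these ratios nor the difference between the libraries was tested.

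Egr1, an immediate early gene, had opposite directions in the cell types when RA+BMP4 was set against RA. Its log2 ratio was 1.19 in members (102 CPM in RA+BMP4 and 44.8 in RA) and -1.45 in the Robo2 type (96.1 CPM in RA+BMP4 and 262 in RA). The difference between the types was not tested, and the RA side of the Robo2 type was 20 cells.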

How the results depend on the processing

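The ratio of member shares of passing cells was 10.8 under the stricter cell filter (2000 genes, 5% mitochondrial UMIs), against 6.28 in the main analysis. The ratio of member shares of Barhl cells was 0.679 under that filter and 0.635 with the rule applied to thinned cells, both chosen after seeing the data. Counts of genes past 2-fold move with the minimum level by construction. Between RA+BMP4 and RA members, 257 genes were higher and 56 lower at 20 CPM, 26 and 12 at 100 CPM, and 844 and 2442 with no minimum beyond 3 counts. The stricter cell filter, with 9 RA members, gave 272 higher and 368 lower. A Barhl minimum of 3 gave 17 lower and a margin of 2 gave 18 lower. Among sets chosen after seeing the data, 98 were higher in members with Robo3 and no Lhx2 UMI and 116 in members with an Lhx2 UMI. Over the Robo2 type, 155 were higher and 203 lower at 20 CPM, 49 and 60 at 100 CPM, and 691 and 1024 with no minimum. Over Atoh1 cells the counts were 574 and 393, 170 and 113, and 1422 and 1889. Between the libraries, TMM and median-of-ratios scaling each gave 47 higher and 39 lower. The sign turned for Ddit4 (-0.075) and Gria4 (-0.66) under the stricter cell filter and for Ebf2 (0.76) in members with Robo3 and no Lhx2 UMI; the cause was not tested. No paired analysis was possible because each condition had 1 library, and for the same reason no replicate could be left out. The depth of the 66 RA members limits every contrast with RA.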

Other observations

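Members also varied among themselves from cell to cell in single genes. Of those named here, Hist1h1b was also among the genes furthest apart between the libraries. At 5000 UMIs per cell, the variance over the mean had a median of 1.07 over 4351 genes in RA+BMP4 members, and 121 genes stood at 2 or more. Malat1, a nuclear RNA, had 41.7 in RA+BMP4 and 35.7 in RA. Crabp1, a retinoic acid binding protein, had 10.2 and 13.3, and Meg3, an imprinted noncoding RNA, 9.98 and 11.02. Hist1h1b, one of a family of similar histone genes, had 8.45 and 1.46, and Fabp7, a fatty acid binding protein of progenitors and glia, 8.01 and 2.29. Tpm1, a tropomyosin, had 6.59 and 0.857. The highest counts in a RA+BMP4 member were 18 UMIs for Hist1h1b, 33 for Fabp7 and 33 for Tpm1. Their means there were 0.266, 0.855 and 0.689 UMIs. Called doublets were kept in these values, and their part was not tested.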
